A study of Mus musculus with 20 samples.

Results

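This account concerns the loss of Ppara in smooth muscle at 2 months of age. It sets 5 aorta libraries of young knockout mice against 5 aorta libraries of young Pparafl/fl mice, 10 of the 20 libraries in the series, taken by the genotype and age of the sample labels. The knockout, written Pparadelta_SMC in the labels, lacks Ppara in smooth muscle cells. Both genotypes carry the conditional Ppara allele, both are C57BL/6, and the other 10 libraries are the same genotypes at 28 months, 5 each. Entire aortas were sequenced, so every cell layer and any attached fat is in the RNA. The promoter driving the recombinase and the deleted exon are not given in the sources used here, nor is the hour of collection. Nothing in the labels says that 2 libraries came from different animals, so a p-value measures the spread between these samples.

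PPARα is a nuclear receptor that binds fatty acids and their derivatives. It pairs with a retinoid X receptor on DNA and switches on genes of fatty acid uptake, mitochondrial and peroxisomal oxidation and ketone body formation. In the vessel wall it is also known for restraining inflammatory genes. Smooth muscle cells form the medial layer of the aorta, where they contract and lay down elastin and collagen.

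Total counts lay between 51745250 and 72255110 in the knockout and between 62139325 and 73535552 in Pparafl/fl. Levels are counts per 1e6 counts (CPM) after TMM scaling within an age, and genes were called in edgeR's two-sided quasi-likelihood test where the p adjusted by Benjamini and Hochberg was under 0.05. Fasn, the fatty acid synthase that is most abundant in fat, had the highest count of all genes in each of the 10 libraries. Xist stayed at or below 1.39 CPM and the Y-linked Ddx3y lay between 91.1 and 179 CPM, so the libraries did not differ in these sex-linked genes. A library stood apart. In the sample titles, knockout replicates 1 to 4 have numbers that begin with 21, while knockout replicate 5 and the 5 Pparafl/fl libraries have numbers that begin with 23. Knockout replicate 5 was also within the Pparafl/fl range, and not that of the other knockouts, in a contrast of clock genes, so results are given with and without it. It was set aside with its clock values known, so p-values without it, for clock genes and for any gene in which it differs from the other knockouts, are not independent of that choice. What the title numbers stand for is not stated, and genotype and title number cannot be told apart for replicates 1 to 4.

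Ppara itself, on chromosome 15 of GRCm38 (85734983 to 85802819, 8 exons, ENSMUSG00000022383), was still counted in the knockout. It measured 104, 66.5, 110.4, 134 and 94.8 CPM in knockout replicates 1 to 5, against 83.6, 140.2, 181, 148 and 87.6 CPM in Pparafl/fl replicates 1 to 5. The groups overlapped, and 3 of the 5 Pparafl/fl libraries lay above every knockout library. The log2 ratio of knockout over Pparafl/fl was -0.33, with a standard error (SE) of 0.25, a 95% interval from -0.88 to 0.23 and an adjusted p of 0.664. These counts are a weak check of the genotype, because cells other than smooth muscle are in the RNA and a transcript without the deleted part would still be counted. In bulk RNA, fewer cells of a type and less RNA per cell cannot be told apart.

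The other receptors did not pass the test either. Ppard, the widely expressed PPARδ receptor, measured 19.7, 23.4, 25.6, 32.1 and 20.6 CPM in the knockout, against 28.7, 35.1, 26.3, 28.5 and 33.4 CPM in Pparafl/fl, a log2 ratio of -0.32 (SE 0.16). Pparg, the receptor of fat cells, had a log2 ratio of -0.01, with values of 219 to 356 CPM in the knockout and 196 to 323 CPM in Pparafl/fl. Rxra, the partner receptor RXRα, fell into high and low libraries in both genotypes. It measured 128, 61.1, 160.0, 149.9 and 57.8 CPM in the knockout, against 50.8, 50.8, 51.5, 159 and 60.8 CPM in Pparafl/fl. The high level was made up of 3 knockout libraries and 1 Pparafl/fl library, and the log2 ratio of 0.58 had an interval from -0.35 to 1.51. Of 20 receptors and coregulators, 0 were called, and their median log2 ratio was -0.04, beside 0.01 over all 20598 genes tested. Ppargc1a, the coactivator PGC-1α that is rich in brown fat, averaged 92.8 ± 53.2 CPM in the knockout and 255 ± 158 CPM in Pparafl/fl (SD, n = 5 each), with an adjusted p of 0.369.

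No gene of the list that PPARα is known to switch on passed the test. Of 73 listed target genes 68 were tested and 0 were called, beside 0.00485% of all genes tested. Their signs were mixed, 31 higher and 37 lower in the knockout, with a median log2 ratio of -0.05. At an unadjusted p under 0.05 there were 6 targets, 3 in each direction, or 8.82% of those tested, beside 10.1% of all genes. The median standard error of a target was 0.21 on the log2 scale, beside 0.31 for all genes. None of the 68 separated the groups without overlap.

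By role, 21 targets of fatty acid uptake and activation had a median log2 ratio of 0.08. Lpl, the lipase that frees fatty acids from blood lipids, measured 1749, 2825, 3877, 3258 and 5656 CPM in the knockout, against 4842, 6045, 4763, 3381 and 4735 CPM in Pparafl/fl. Knockout replicates 1, 2 and 4 were below every Pparafl/fl library, while replicate 5 was above 4 of them. Fabp4, the fatty acid carrier of fat cells, had a log2 ratio of 0.12 (SE 0.16). Angptl4, a secreted inhibitor of Lpl, had one of -0.12, with 161 to 449 CPM in the knockout and 257 to 417 CPM in Pparafl/fl. Slc27a1, a fatty acid transporter, averaged 439 ± 16.7 CPM in the knockout and 355 ± 60.6 CPM in Pparafl/fl (SD, n = 5 each), with an adjusted p of 0.444.

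The 27 targets of mitochondrial oxidation had a median log2 ratio of -0.11. Pdk4, the kinase that holds back pyruvate oxidation when fatty acids are burnt, measured 1464, 818, 1563, 2320 and 3003 CPM in the knockout, against 1961, 3057, 4138, 3556 and 2371 CPM in Pparafl/fl. The groups overlapped, with knockout replicates 4 and 5 in the range of Pparafl/fl. Its log2 ratio was -0.72 (SE 0.33), with an interval from -1.46 to 0.02 and an adjusted p of 0.501. Cpt1a, the gate for fatty acids into mitochondria, differed by -0.18 on the log2 scale (SE 0.14).

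Both uncoupling proteins of the list had small p-values but opposite signs. Ucp3, found in muscle and brown fat, measured 72.8, 59.3, 74.5, 94.9 and 69.7 CPM in the knockout, against 55.1, 67.1, 37.6, 37.1 and 35.4 CPM in Pparafl/fl, a log2 ratio of 0.68. Only knockout replicate 2 lay below the highest Pparafl/fl library. Ucp2, abundant in immune cells, averaged 128 ± 25.2 CPM in the knockout and 201 ± 43.0 CPM in Pparafl/fl (SD, n = 5 each). Neither was called, at adjusted p-values of 0.339 and 0.329 in edgeR, of which 0.329 was the smallest among the 68 targets.

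Among 20 tested targets of peroxisomal and omega oxidation the median log2 ratio was -0.05. Cat, catalase, had a log2 ratio of -0.28 (SE 0.16). Cyp4a14, a liver target of PPARα, was at or below 0.346 CPM in the knockout and at or below 0.441 CPM in Pparafl/fl, so a difference was not detectable at this depth.

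**Figure D1:**
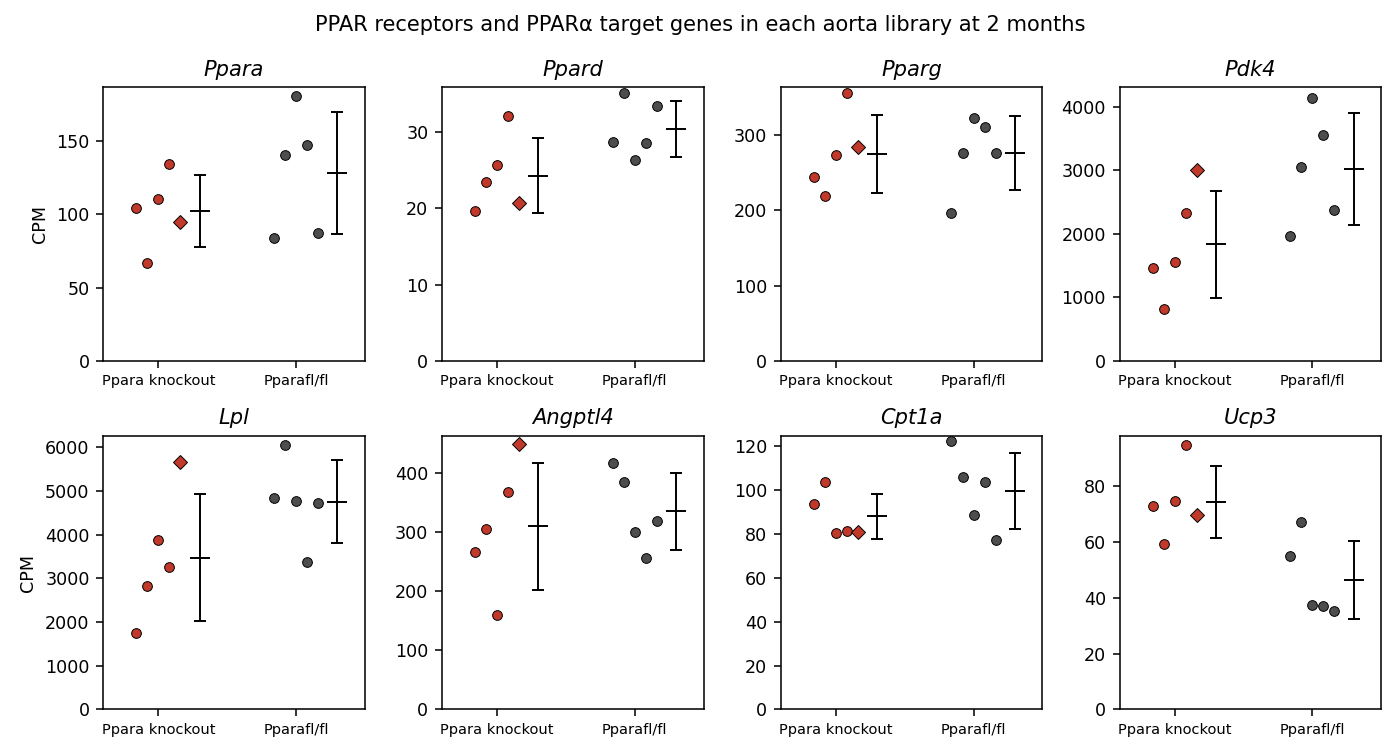
Level in CPM (vertical axis, from 0) of 3 PPAR receptors and 5 PPARα target genes in the 5 knockout libraries (red, left, diamond for replicate 5) and the 5 Pparafl/fl libraries (grey, right), with the mean and SD beside the points. In all 8 panels the groups overlap, and in Lpl and Pdk4 3 knockout libraries lie below every Pparafl/fl library.

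A single gene passed the test over all 20598 genes, and 0 genes were called higher. At an unadjusted p under 0.05 there were 2081 genes. DESeq2's Wald test called 267 genes higher and 142 lower. The called gene, Gm2541, is annotated as a processed pseudogene of 1 exon on chromosome 16 (85553233 to 85553943). It had 0 counts in all 5 knockout libraries, against 3.35, 2.74, 4.09, 3.89 and 3.6 CPM in Pparafl/fl, which came from 180 to 259 counts a library. That made it at least 351-fold lower in the knockout against a floor of 3 counts over the group, with an adjusted p of 0.00425. The call was lost without Pparafl/fl replicate 1 (adjusted p of 0.0541 in edgeR) or replicate 4 (0.0553), with a contractile term (0.0554), with a clock term (0.169) and in a fit of all 20 libraries (0.330), which called Snx3 in its place. The pattern did not follow genotype at 28 months, where it measured 1.93, 3.11, 2.27, 4.00 and 3.23 CPM in the knockout and 2.92, 4.31, 0, 0 and 2.74 CPM in Pparafl/fl. How reads shared with other copies were assigned is not stated, so its counts are uncertain.

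A further 3 genes had an adjusted p of 0.0967 and groups that did not overlap, chosen here after their values were seen. Snx3, a sorting nexin of endosomes (chromosome 10, 42502030 to 42535381), measured 21.2, 21.03, 37.1, 26.2 and 52.8 CPM in the knockout, against 107, 113, 128, 121 and 123 CPM in Pparafl/fl. Every knockout library was at less than the lowest Pparafl/fl level, with replicate 5 nearest to it. The log2 ratio was -1.90 (SE 0.25). At 28 months Snx3 measured 83.5, 64.3, 68.5, 77.6 and 29.0 CPM in the knockout and 92.5, 81.3, 81.5, 62.7 and 68.4 CPM in Pparafl/fl, a log2 ratio of -0.26.

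Man1a2, a mannosidase that trims sugar chains in the Golgi (chromosome 3, 100562208 to 100685503), measured 54.3, 45.9, 50.3, 36.4 and 33.9 CPM in the knockout, against 131, 83.6, 117, 94.0 and 126 CPM in Pparafl/fl. Here knockout replicate 5 was the lowest of all 10 libraries. The log2 ratio was -1.32 (SE 0.18), and -0.06 at 28 months. Svep1, a large extracellular matrix protein (chromosome 4, 58042442 to 58206859), measured 583, 524, 593, 684 and 486 CPM in the knockout, against 308, 319.7, 313, 319 and 351 CPM in Pparafl/fl. Its log2 ratio was 0.83 (SE 0.11) at 2 months and -0.29 (SE 0.40) at 28 months. Groups did not overlap for 530 of all genes tested, or 2.57% (1.38% with the knockout higher and 1.19% with it lower), so separation of this kind is not rare. In a test of the difference between ages, which used all 20 libraries, the adjusted p-values of these 4 genes in edgeR were 0.730 for Gm2541 and Snx3, 0.759 for Man1a2 and 0.764 for Svep1.

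**Figure D2:**
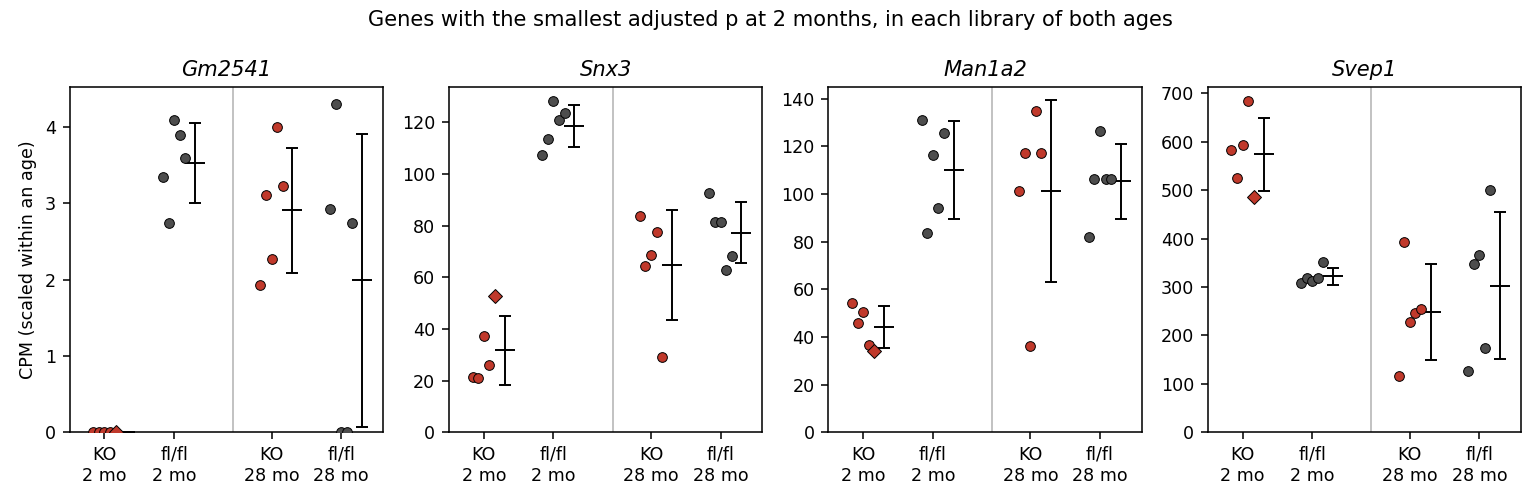
Level in CPM (vertical axis, from 0) of Gm2541, Snx3, Man1a2 and Svep1 in each library, with knockout in red (KO, left of its comparison) and Pparafl/fl in grey (fl/fl), at 2 months on the left and at 28 months on the right of the line, with mean and SD. At 2 months the groups do not overlap in any of the 4 panels, and at 28 months they overlap in all 4.

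Without knockout replicate 5, with 4 knockout against 5 Pparafl/fl libraries, 102 genes were called among 21094 tested (0.484%). Of these 70 rose (0.332%) and 32 fell (0.152%) in knockout replicates 1 to 4. That library moved the counts more than any other did, since leaving out each of the other 9 libraries gave 0 to 3 calls. With replicate 5 kept, DESeq2's Wald test called 409 genes, and 71 of the 102 were among them. Both versions use the same 5 Pparafl/fl libraries. Among the 70 genes the median difference from Pparafl/fl in mean log2(CPM + 0.5) was 1.13 in knockout replicates 1 to 4 and 0.16 in replicate 5. Among the 32 genes it was -1.35 in replicates 1 to 4 and 0.04 in replicate 5. The genes were chosen by the fit that leaves replicate 5 out, so its smaller differences are not independent of that choice. For 2 of the 102 genes, Man1a2 and Gm2541, replicate 5 lay as far from Pparafl/fl as the other knockouts. Genes singled out among the 102 were chosen after their values were seen, clock genes included.

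The circadian clock is a loop in which ARNTL, with CLOCK or NPAS2 as partner, switches on genes through the E-box motif. The products of Per and Cry genes shut it down, and the PAR-domain factors DBP, TEF and HLF act through a second motif, the D-box. Levels of these genes therefore depend on the hour at which tissue is taken. The hour is not stated in the sources used here, and its part in the result was not tested.

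Of 22 clock genes, 4 rose and 3 fell in knockout replicates 1 to 4, a median log2 ratio of 0.43. Over all genes tested without replicate 5, 0.332% rose and 0.152% fell. With replicate 5 included 0 of the 22 were called, though 14 had an unadjusted p under 0.05, 10 of them higher and 4 lower. An unadjusted p under 0.05 was found for 10.1% of all genes. Dbp, an output factor of the clock, measured 48.9, 59.1, 66.8, 48.0 and 6.70 CPM in knockout replicates 1 to 5, against 6.93, 8.71, 5.72, 4.08 and 4.05 CPM in Pparafl/fl. The first 4 knockout libraries were far above all others, and replicate 5 was within the Pparafl/fl range. Without replicate 5 the log2 ratio was 3.23 (SE 0.26) with an adjusted p of 0.0032, and with it the log2 ratio was 2.96 (SE 0.52) with an adjusted p of 0.231.

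Per3, a period gene, measured 157, 106, 82.2, 154 and 35.1 CPM in the knockout, against 32.5, 41.5, 23.1, 24.6 and 22.8 CPM in Pparafl/fl. Tef, a relative of Dbp, measured 135, 87.3, 89.6, 185 and 43.6 CPM in the knockout, against 39.5, 45.3, 23.6, 34.8 and 29.2 CPM in Pparafl/fl. Ciart, a repressor of the ARNTL complex, measured 14.5, 7.92, 12.7, 11.5 and 1.51 CPM in the knockout, against 2.64, 3.74, 3.83, 3.12 and 2.86 CPM in Pparafl/fl. For all 3 genes replicates 1 to 4 lay above every Pparafl/fl library and replicate 5 did not lie above all of them. Their log2 ratios without it were 2.10, 1.84 and 1.83, with adjusted p-values of 0.00974, 0.0232 and 0.00974 in edgeR.

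The activating arm moved the other way. Npas2 measured 5.30, 3.12, 3.03, 2.26 and 30.9 CPM in the knockout, against 34.0, 20.1, 29.9, 24.4 and 27.8 CPM in Pparafl/fl. Arntl measured 10.3, 16.8, 15.4, 11.9 and 52.1 CPM in the knockout, against 45.7, 32.2, 53.4, 50.7 and 46.4 CPM in Pparafl/fl. Clock measured 112, 104, 106, 111 and 174 CPM in the knockout, against 169, 152, 157, 204 and 171 CPM in Pparafl/fl. In all 3 genes replicates 1 to 4 were below every Pparafl/fl library and replicate 5 was within their range. The log2 ratios without replicate 5 were -3.0 for Npas2, -1.76 for Arntl and -0.67 for Clock, with adjusted p-values of 0.0052, 0.00974 and 0.0405 in edgeR.

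Nr1d1, the repressor REV-ERBα, differed from this pattern in replicate 5. It measured 161, 131, 196, 206 and 136 CPM in the knockout, against 104, 117, 42.2, 63.2 and 18.8 CPM in Pparafl/fl, so the groups did not overlap with replicate 5 included. Its adjusted p was 0.376 with that library and 0.263 without it. A clock contrast was computed as the log2 of the mean CPM over Dbp, Per3 and Ciart less the log2 of the mean CPM over Arntl, Npas2 and Clock. It was 0.78, 0.48, 0.37 and 0.77 in knockout replicates 1 to 4 and -2.57 in replicate 5, against -2.56, -1.92, -2.88, -3.14 and -3.05 in Pparafl/fl. With this contrast as a term in the fit, 0 genes were called in the full comparison of 10 libraries, where 653 had an unadjusted p under 0.05. Since the contrast separates knockout replicates 1 to 4 from all Pparafl/fl libraries, that fit leaves replicate 5 as the main library to tell genotype from the contrast, and its count says little about genotype.

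**Figure D3:**
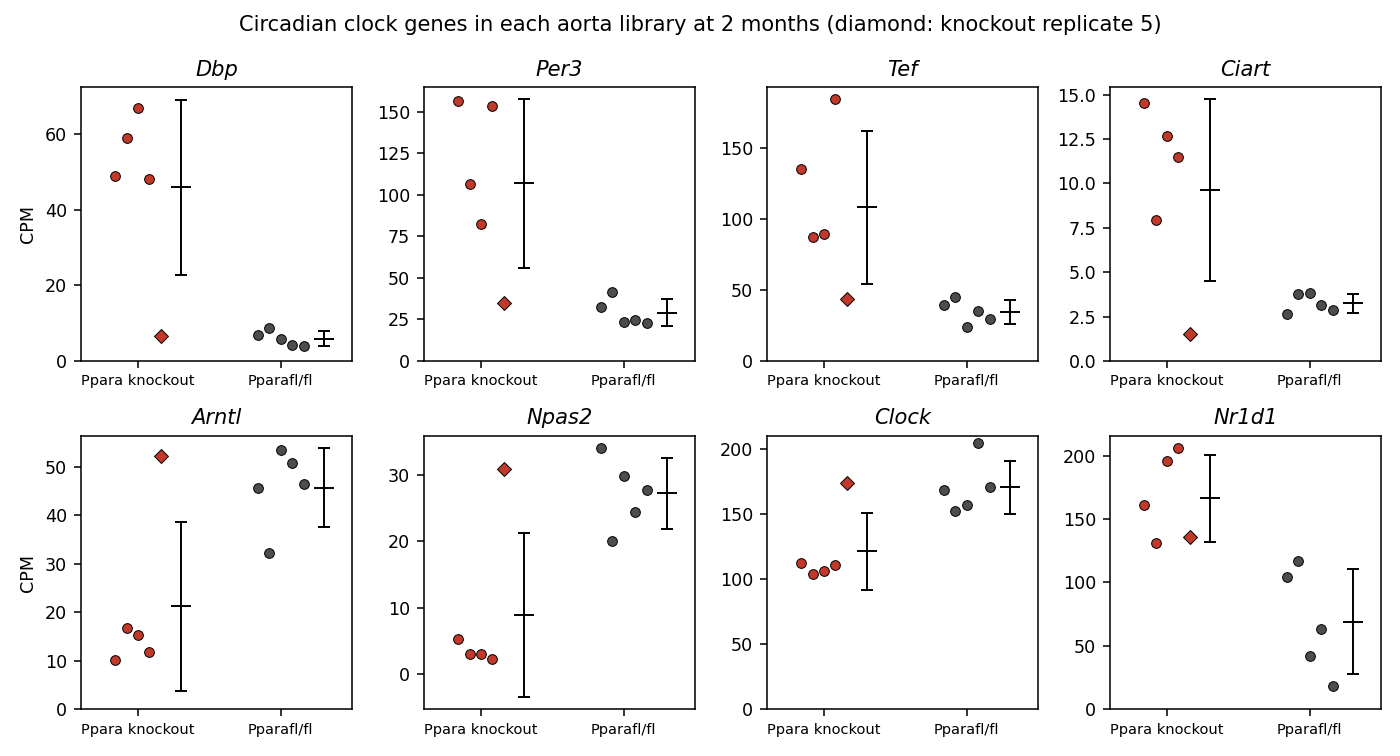
Level in CPM (vertical axis, 0 marked) of 8 clock genes in the 5 knockout libraries (red, left) and the 5 Pparafl/fl libraries (grey, right), with mean and SD beside the points and a diamond for knockout replicate 5. In the upper row the 4 circles of the knockout lie above Pparafl/fl and the diamond lies among or below it, in the first 3 panels of the lower row the circles lie below and the diamond lies among it, and Nr1d1 is the panel where the diamond stays with the circles.

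Motifs of the clock can be read in the promoters of some of these genes. The promoters of Ciart and Per3, which rose with Dbp in the same 4 libraries, are shown as examples that held a match. Tef rose in these libraries too and is not shown. The sequences are given 5′ to 3′ on the strand of the gene, from RefSeq on GRCm38.p6. Per3 runs up to the RefSeq start and Ciart up to 23 bases short of it. Capitals mark the E-box CACGTG in Ciart (chr3:95882252-95882478, minus strand) and the D-box TTATGTAA in Per3 (chr4:151044666-151044915, minus strand).
Ciart: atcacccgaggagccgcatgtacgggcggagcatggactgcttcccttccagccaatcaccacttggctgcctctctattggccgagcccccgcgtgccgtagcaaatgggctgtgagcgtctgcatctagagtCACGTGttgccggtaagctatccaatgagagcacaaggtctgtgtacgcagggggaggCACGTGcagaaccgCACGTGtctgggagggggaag
Per3: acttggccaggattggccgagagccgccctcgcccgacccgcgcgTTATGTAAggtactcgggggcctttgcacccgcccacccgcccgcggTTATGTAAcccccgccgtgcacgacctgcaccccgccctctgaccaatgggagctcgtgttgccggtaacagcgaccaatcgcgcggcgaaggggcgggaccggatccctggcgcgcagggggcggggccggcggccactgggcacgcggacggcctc
Ciart held 3 E-boxes, whose first bases lie 116, 58 and 44 bases before the RefSeq start, and Per3 held 2 D-boxes, at 205 and 158 bases before it. In the 250 bases before a start, searched on both strands, CACGTG was found in 6.02% of 32851 RefSeq windows and TTATGTAA in 0.819%. Windows were at hand for 17 of the 22 clock genes, and 6 of their 25 windows held the E-box, both windows of Tef among them, while 1 held the D-box. The PPAR motif, 2 copies of AGGTCA in the same direction with 1 base between them, was in 0.0335% of all windows and in 0 of 65 windows of 55 PPARα targets. A match is a description of the letters and not a binding site, and the motifs do not overlap each other.

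Some genes of vascular endothelium, the inner lining of the vessel, were also among those that rose in knockout replicates 1 to 4, though 1 of 17 general endothelial markers was called. Beside this, 0.332% of all genes tested without replicate 5 rose. Flt1, a receptor for VEGF, measured 294, 195, 228, 237 and 114 CPM in the knockout, against 106, 108, 119.5, 78.4 and 93.6 CPM in Pparafl/fl. Robo4, a receptor of endothelial cells, measured 86.7, 61.6, 72.3, 65.1 and 37.9 CPM in the knockout, against 33.9, 33.2, 33.5, 31.9 and 36.9 CPM in Pparafl/fl. In both genes the first 4 knockout libraries were separate and replicate 5 was close to the upper end of Pparafl/fl. Without it the log2 ratios were 1.23 for Flt1 and 1.06 for Robo4, with adjusted p-values of 0.0113 and 0.00812 in edgeR.

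Of 16 genes of capillary endothelium, a list added after the data were seen, 5 rose without replicate 5, beside 0.332% of all genes tested. The median log2 ratio of the 16 was 0.79. The 5 were Car4, a carbonic anhydrase at the surface of capillaries, Cd300lg, Flt1 and the adhesion receptors Adgrf5 and Adgrl4. Cd300lg measured 113, 94.2, 79.4, 99.4 and 52.2 CPM in the knockout, against 48.8, 48.8, 34.2, 36.4 and 40.4 CPM in Pparafl/fl, so that all 5 knockout libraries were higher. Of 17 general endothelial markers Robo4 was the 1 called, and 15 had a positive sign with all 10 libraries, a median log2 ratio of 0.41. The summed level of these 17 markers was 3425, 1958, 2603, 2235 and 1965 CPM in the knockout, against 2382, 1874, 1875, 1860 and 1814 CPM in Pparafl/fl. Only knockout replicate 1 and replicate 3 were above the highest Pparafl/fl library.

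Among 15 tested Notch pathway genes 3 also rose, beside 0.332% of all genes tested. They were the ligands Dll4 and Jag2 and the receptor Notch4, which are all made by endothelial cells. Dll4 measured 36.2, 26.8, 26.5, 29.0 and 12.1 CPM in the knockout, against 10.5, 10.6, 12.2, 13.8 and 13 CPM in Pparafl/fl. Jag2 measured 63.2, 45.8, 60.5, 54.3 and 29.3 CPM in the knockout, against 26.4, 25.1, 18.4, 20.2 and 25.4 CPM in Pparafl/fl. Dll4 in replicate 5 was inside the Pparafl/fl range, while Jag2 was above it in all 5 knockout libraries. The log2 ratios without replicate 5 were 1.29, 1.27 and, for Notch4, 1.02, and the Notch list, also added after the data were seen, had a median of 0.16. Plvap, a protein of the diaphragms of fenestrated endothelium, fell instead. It measured 25.2, 24.7, 32.7, 29.5 and 82.0 CPM in the knockout, against 81.6, 43.6, 93.3, 98.3 and 63.6 CPM in Pparafl/fl.

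Tada2b, a subunit of the SAGA histone acetylation complex, rose without replicate 5 with the smallest adjusted p of the 102 genes. It measured 63.1, 62.7, 77.5, 80.3 and 9.98 CPM in the knockout, against 10.4, 5.81, 8.24, 8.71 and 8.04 CPM in Pparafl/fl, and replicate 5 was within the Pparafl/fl range. Its log2 ratio without replicate 5 was 3.09 (SE 0.18) with an adjusted p of 0.000578 in edgeR, and at 28 months it was -0.99 (SE 0.70). Ccdc8 and Tssk6, genes of 1 exon, were counted in some libraries and at 0 in the rest. Ccdc8 measured 8.16, 5.64, 3.54 and 5.27 CPM in knockout replicates 1 to 4 and 0 in replicate 5, against 0 in all 5 Pparafl/fl libraries. Tssk6 was at 0 in knockout replicates 1 to 4 and at 1.82 CPM in replicate 5, against 1.33 to 2.4 CPM in Pparafl/fl. Uneven counts were common in coding genes of 1 exon that reached 500 counts in 2 of the 10 libraries. Of 108 such genes, 96 were at 0 or 1 count in another library. The same was true of 58 of 11539 genes with more exons. By this rule 0 of the 102 genes were uneven, so Ccdc8 and Tssk6 lie outside it. Of the 102 genes, 5 have 1 exon, and the share over all genes tested was not computed.

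Mast cells lie in the adventitia and store proteases in their granules. Of 14 mast cell markers, a list added after the data were seen, 4 fell without replicate 5 and 0 rose. Over all genes tested without replicate 5, 0.152% fell and 0.332% rose. With all 10 libraries 10 of the 14 had a negative and 4 a positive sign. The list summed to 143, 258, 211.8, 366 and 158 CPM in the knockout, against 226.7, 216, 147, 159 and 264 CPM in Pparafl/fl, which overlapped, and its largest share came from Slc18a2, a monoamine transporter with a mean of 125 CPM in the knockout and 75.1 CPM in Pparafl/fl. Cpa3, carboxypeptidase A3, measured 1.99, 2.65, 2.90, 3.61 and 9.24 CPM in the knockout, against 13, 14.1, 8.93, 15.9 and 15.3 CPM in Pparafl/fl. Cma1, a chymase, measured 2.81, 2.37, 2.14, 3.88 and 8.78 CPM in the knockout, against 15.3, 12.7, 11.1, 12.1 and 10.6 CPM in Pparafl/fl. Replicate 5 was again the highest knockout library, though for Cma1 still below all Pparafl/fl libraries. The log2 ratios without it were -2.28 and -2.15, with adjusted p-values of 0.00803 and 0.00723 in edgeR. Mcpt4 and Tpsb2, a chymase and a tryptase, fell by 1.87 and 1.48 on the log2 scale, and Tpsb2 has a close copy in Tpsab1 with which it could share reads.

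Of 22 macrophage markers 20 had a negative sign with all 10 libraries, a median log2 ratio of -0.46, and 0 were called. The summed level of the list was 856, 1048, 885, 1012 and 1302 CPM in the knockout, against 1417, 1275, 1750, 1454 and 1423 CPM in Pparafl/fl, so that replicate 5 was above 1 Pparafl/fl library. Csf1r, the receptor for the growth factor of macrophages, measured 100.3, 112, 118, 107 and 171 CPM in the knockout, against 204, 196, 223, 193 and 178 CPM in Pparafl/fl. All 5 knockout libraries were lower, and the log2 ratio was -0.88 without replicate 5 (adjusted p of 0.00974) and -0.71 with it (adjusted p of 0.231). Lyz2, lysozyme, measured 194, 426, 318, 349 and 384 CPM in the knockout, against 545, 493, 804, 589 and 502 CPM in Pparafl/fl, which did not overlap either, and was not called in either version. The chemokine Ccl8 and the ficolin Fcna, both made by tissue macrophages in mice, fell without replicate 5, by 2.72 and 1.47 on the log2 scale. At 28 months Csf1r, Lyz2 and Ccl8 had log2 ratios of 0.35, 0.81 and 0.30, and Fcna had one of -0.55.

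Smooth muscle genes, those of the cell type that carries the deletion, varied more among knockouts than between genotypes. Acta2, smooth muscle actin, measured 2473, 264, 386, 446 and 3907 CPM in the knockout, against 3165, 2174, 1391, 2920 and 1146 CPM in Pparafl/fl. Myh11, the smooth muscle myosin, measured 1918, 266, 376, 460.3 and 2554 CPM in the knockout, against 2176, 1534, 1147, 2091 and 939 CPM in Pparafl/fl. Knockout replicates 2, 3 and 4 were below every Pparafl/fl library in both genes, while replicates 1 and 5 were within or above their range. The log2 ratio of Acta2 was -0.53 with an interval from -2.15 to 1.09. The 12 smooth muscle markers summed to 7719, 1510, 1402, 2335 and 10560 CPM in the knockout, against 8748, 6474, 4072, 8528 and 3915 CPM in Pparafl/fl. Of 32 contractile genes 24 had a negative sign and 0 were called, with a median log2 ratio of -0.36 over 10 libraries and -0.81 without replicate 5.

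Smooth muscle cells and fibroblasts make the matrix of the wall. Of 42 extracellular matrix and elastic fibre genes 37 had a negative sign and 0 were called, a median log2 ratio of -0.41, and -0.68 without replicate 5, when Col1a1 was the 1 called. In that fit 0.152% of all genes tested fell. Fibroblast and adventitia markers, which share at least Col1a1 and Col3a1 with the matrix list and so are not independent of it, moved with it. They had a negative sign in 14 of 18, a median log2 ratio of -0.30, and -0.47 without replicate 5. They summed to 7756, 5773, 5848, 6728 and 11610 CPM in the knockout, against 11190, 9017, 8925, 9894 and 12450 CPM in Pparafl/fl, so replicates 1 to 4 were below every Pparafl/fl library. Their part in the matrix values was not tested. Col1a1, a chain of type I collagen, measured 534, 396, 447, 417 and 1287 CPM in the knockout, against 1528, 794, 826, 988 and 1485 CPM in Pparafl/fl. Eln, elastin, measured 292, 93.5, 122, 124 and 919 CPM in the knockout, against 1352, 813, 465, 679.9 and 422 CPM in Pparafl/fl. Knockout replicates 1 to 4 were below every Pparafl/fl library in both genes, and replicate 5 was within the range. Without replicate 5 the adjusted p was 0.0446 for Col1a1 and 0.0806 for Eln in edgeR, and with it 0.47 and 0.533. Pcolce, an enhancer of collagen processing, fell by 0.53 on the log2 scale in replicates 1 to 4. In replicate 5 it measured 135 CPM, above every Pparafl/fl library (98.2 to 103.3 CPM). Its adjusted p with that library was 0.640 in edgeR. Ltbp2, a binding protein of the microfibrils, was the 1 list member with all 5 knockout libraries higher, at a log2 ratio of 0.38 and an adjusted p of 0.275.

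Other cell types differed between single libraries. Skeletal muscle markers summed to 15470, 14990, 4234, 9048 and 375 CPM in the knockout, against 1031, 10350, 1976, 426 and 3718 CPM in Pparafl/fl. All 19 tested had a positive sign, and the genotypes overlapped. Cardiomyocyte markers were highest in knockout replicate 1, at 8671 CPM, against 292 to 2354 CPM in Pparafl/fl. Airway epithelium genes summed to 197 CPM in that library and to 16.8 to 26.2 CPM in the other knockouts, against 12.9 to 26.2 CPM in Pparafl/fl. Schwann cell and neuron markers had a positive sign in 18 of 18, at 1020 to 2352 CPM in the knockout and 406 to 1933 CPM in Pparafl/fl.

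T and NK cell markers were far lower in 3 knockout libraries than in the rest. They summed to 12.9, 310.4, 282, 20.01 and 66.7 CPM in the knockout, against 265, 239, 340.4, 336 and 229.6 CPM in Pparafl/fl. B and plasma cell markers followed the same libraries, with 227, 1444, 1402, 243 and 638 CPM in the knockout, against 2345, 1658, 2332, 1689 and 1200 CPM in Pparafl/fl. Knockout replicates 1 and 4 were the lowest in both lists and replicate 5 came next, while replicates 2 and 3 were within or near the Pparafl/fl range. Of 20 T and NK cell markers 20 had a negative sign and 0 were called. The part of any of these cell types in the gene results above was not tested, beyond a fit with the contractile mean as a term, in which 0 genes were called and 2620 had an unadjusted p under 0.05.

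**Figure D4:**
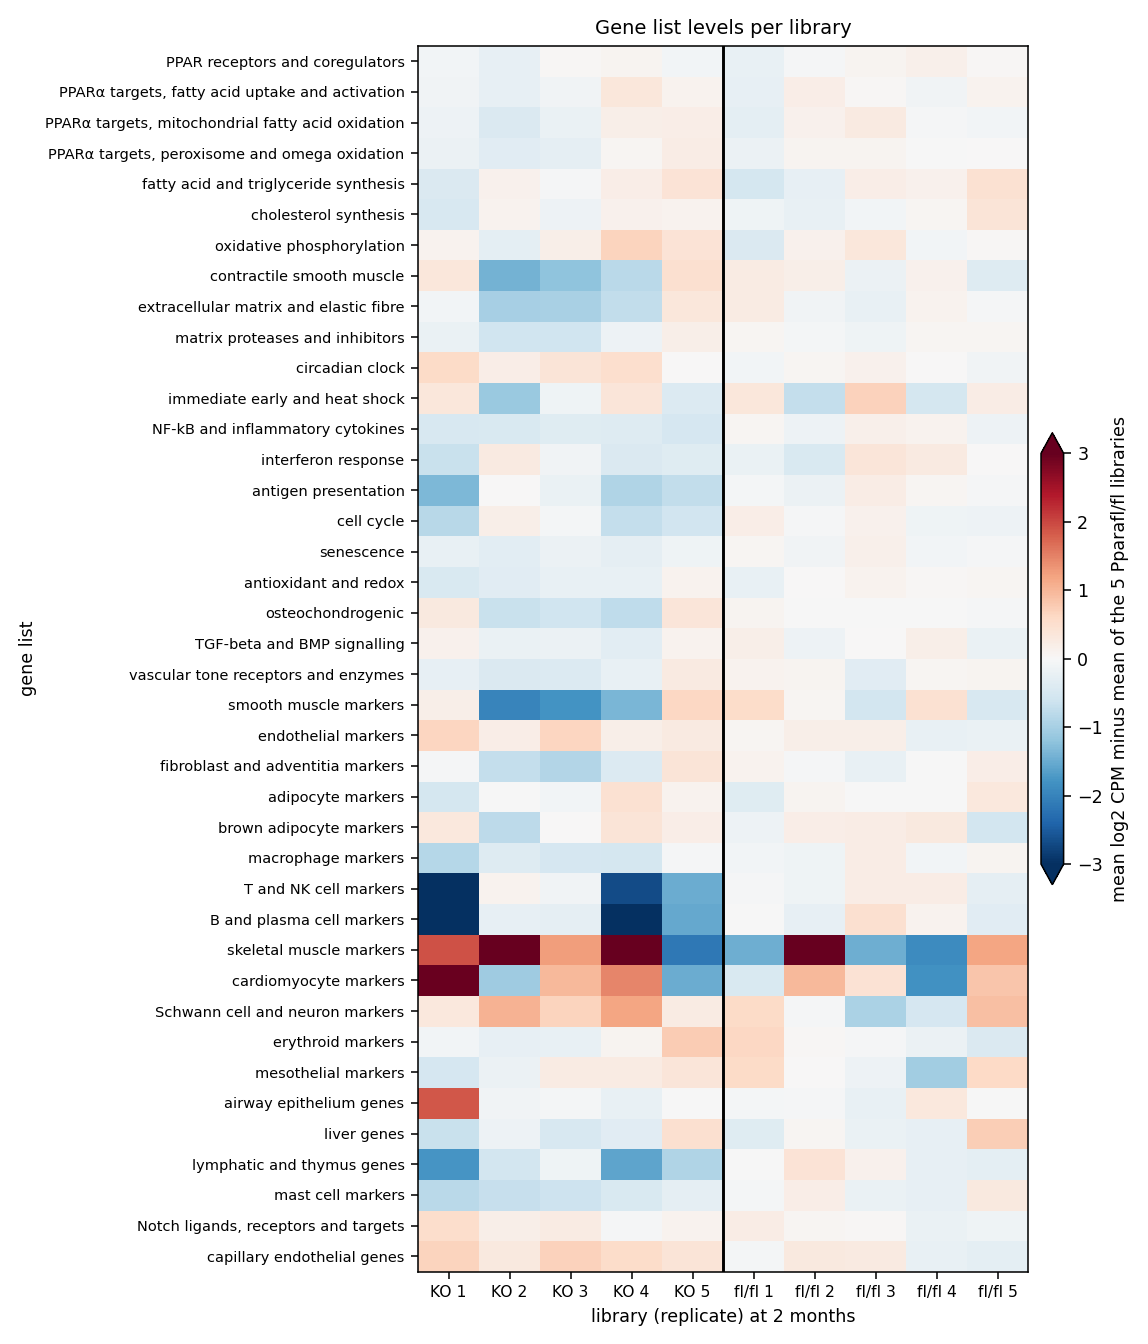
Mean log2(CPM + 0.5) of each gene list in each 2-month library, minus the mean of the 5 Pparafl/fl libraries (colour, log2 units, values beyond 3 in either direction share the end colour), with the 5 knockout libraries on the left of the line. Smooth muscle and matrix lists are low in knockout replicates 2, 3 and 4, and the PPARα target lists vary little. Lymphocyte lists are lowest in replicates 1 and 4, and replicate 5 is also below every Pparafl/fl library in them.

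Fat was abundant in both genotypes. The 22 adipocyte markers summed to 59380 to 91970 CPM in the knockout and 46710 to 93030 CPM in Pparafl/fl, with a median log2 ratio of 0.12 and 0 called. Ucp1, the uncoupling protein of brown fat, measured 1179, 769, 1240, 1435 and 2774 CPM in the knockout, against 1501, 3614, 2484, 1750 and 1087 CPM in Pparafl/fl. The genotypes overlapped, and the 16 tested brown fat genes had a median of 0.17. Of 25 genes of fatty acid and triglyceride synthesis, 24 of cholesterol synthesis and 41 of oxidative phosphorylation, 0 were called, with medians of -0.02, 0.05 and 0.12. Insig1, a brake on sterol synthesis, ranged more widely, from 83.9 to 826 CPM in the knockout and from 359 to 1014 CPM in Pparafl/fl, with an adjusted p of 0.561.

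PPARα is known to restrain inflammatory genes, and none of their lists held a call with all 10 libraries. Of 29 tested genes of NF-κB signalling and inflammatory cytokines 22 had a negative sign and 0 were called. An unadjusted p under 0.05 was found for 10 of them, 9 lower and 1 higher, beside 10.1% of all genes. Without replicate 5 the 2 called among 30 tested in this list were Ccl8, which fell, and Nos2, the inducible nitric oxide synthase, which rose. Beside them, 0.332% of all genes tested without replicate 5 rose and 0.152% fell. Nos2 measured 13.7, 10.6, 12.5, 9.38 and 3.68 CPM in the knockout, against 5.49, 4.29, 4.63, 4.51 and 6.14 CPM in Pparafl/fl, so replicate 5 was below all of Pparafl/fl. Antigen presentation genes had a negative sign in 18 of 19, a median log2 ratio of -0.49. Cd74, the chaperone of class II molecules, averaged 205 ± 86.1 CPM in the knockout and 482 ± 202 CPM in Pparafl/fl (SD, n = 5 each) without overlap, at an adjusted p of 0.337. Knockout replicates 1 and 4, the lowest in B cell markers, were also the lowest in antigen presentation genes. These summed there to 2371 and 3356 CPM, against 4136 to 5482 CPM in Pparafl/fl. Replicate 5 was also below that range, at 3484 CPM.

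Interferon response genes had a median of -0.14 over 30. Cell cycle genes had a negative sign in 33 of 36 at low levels, 242 to 454 CPM in sum in the knockout and 363 to 439 CPM in Pparafl/fl. Of the 21 senescence, 29 antioxidant, 17 osteochondrogenic, 21 TGF-β and BMP, 27 vascular tone, 24 matrix protease and 32 immediate early and heat shock genes tested, 0 were called, and the medians lay between -0.26 and -0.05. Cyba, the p22phox subunit of NADPH oxidases, was the antioxidant and redox gene with the smallest p, with 8.39 ± 2.60 CPM in the knockout and 18.8 ± 3.18 CPM in Pparafl/fl (SD, n = 5 each), no overlap and an adjusted p of 0.231.

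The 28-month libraries, which share none with the comparison above, allow the same genes to be read again. There 0 of 21468 genes were called (0%), with 689 at an unadjusted p under 0.05. Of the 70 genes that rose in knockout replicates 1 to 4 at 2 months, 58 had a positive sign at 28 months, with a median log2 ratio of 0.28. Of 32 that fell, 29 were tested at 28 months and 21 had a negative sign, with a median of -0.29. Over all 20142 genes tested at both ages, 52.1% had the same sign. At 28 months the log2 ratio (± standard error) was 0.82 ± 0.60 for Dbp, 0.15 ± 0.48 for Per3, 0.29 ± 0.30 for Flt1 and 0.48 ± 0.36 for Cd300lg. In edgeR's test of the difference between ages the adjusted p was 0.759 for Dbp and Per3, 0.848 for Flt1 and 0.939 for Cd300lg, so none of these was shown to differ between ages.

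In the test of the difference between ages 0 of 23624 genes were called (0%), 1432 had an unadjusted p under 0.05, and DESeq2's Wald test called 269. Lyz2 and Tada2b had genotype differences of opposite sign at the 2 ages, which were apart by -1.65 and 3.79 on the log2 scale (2 minus 28 months) and an adjusted p of 0.730 each in edgeR. The biological coefficient of variation was 0.526 at 2 months and 0.677 at 28 months.

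**Figure D5:**
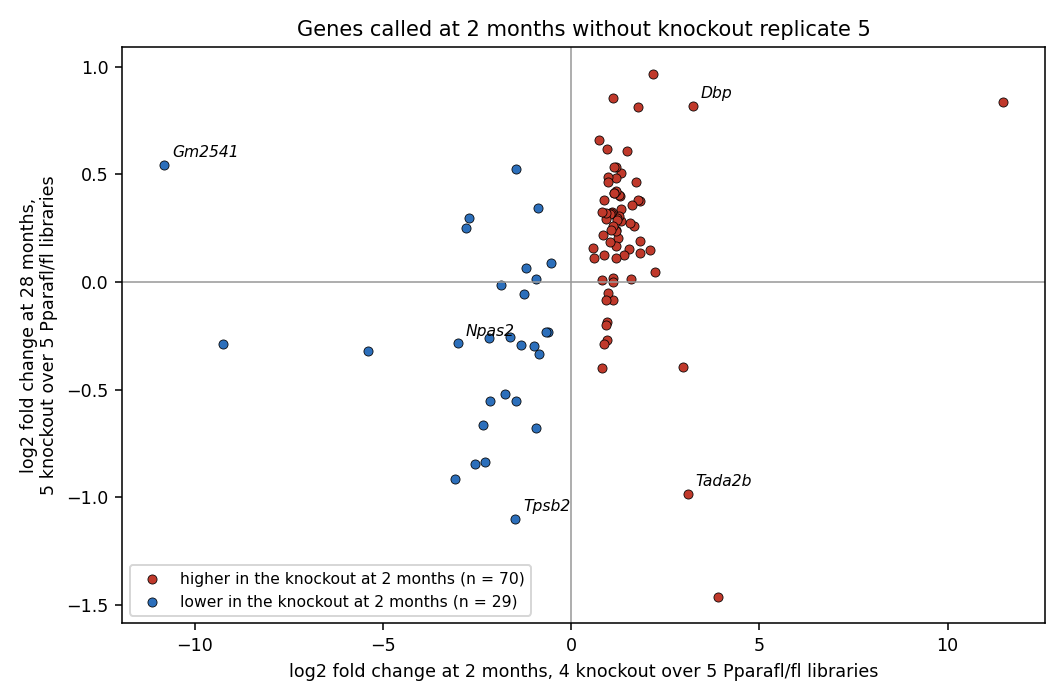
Log2 ratio of knockout over Pparafl/fl at 2 months without knockout replicate 5 (horizontal axis) and at 28 months with all 10 libraries (vertical axis) for the 99 genes called at 2 months that were also tested at 28 months, red for the 70 higher and blue for the 29 lower ones. Of the red points 58 lie above 0 on the vertical axis and of the blue points 21 lie below it, on a vertical scale much narrower than the horizontal one, and the outermost horizontal values belong to genes at 0 counts in 1 group, whose fitted size depends on the prior count.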

How the data were processed

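Poly(A) or total RNA selection is not given in the sources used here. Per the labels' protocols, total RNA was extracted with TRIzol (the notes name islets, the tissue is aorta) and libraries were made with a stranded KAPA kit. The submitters' processing notes name HISAT, featureCounts 1.5.0-p3, DESeq 1.8.3 and GRCm38. They give no strand setting, so whether reads of overlapping or antisense genes were kept apart is not known. The authors deposited whole-number counts per gene, which were used as deposited. Total counts were 50046288 to 79385413 over the 20 libraries. Of 55421 gene identifiers 55240 matched GENCODE M21.

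Genotypes were compared in edgeR 4.0.16 (R 4.3.3, limma 3.58.1) with TMM scaling, filterByExpr and the quasi-likelihood test, on the 10 libraries of an age. The difference between ages used all 20. A standard error was taken as the size of the log2 ratio over the square root of its F statistic, and intervals are 95%. Floors of 3 counts cover counting error only. Scripts were tested on simulated data. Within-group correlations of log2 CPM were 0.888 to 0.936 and 0 pairs of libraries were identical.

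Members and the 37 gene lists were chosen with earlier results of these data known, and 3 lists (mast cell, Notch, capillary endothelial) and 49 genes were added after their values were seen. The list members Slc27a1, Ppargc1a, Ucp2, Slc18a2, Cd74, Cyba and Ltbp2 are not among the 49 and were also named with their values known. The naming rule took Ppara and the receptors, the 10 called genes with the largest change in each direction, with non-overlapping groups, at least 50 counts and more than 1 exon (0 qualified), and up to 3 called or 1 or 2 most abundant members of each list. Alternatives were DESeq2 1.42.0 size factors and its Wald test, other filters, a 2-fold minimum, 1 fit of 20 libraries, terms for title number, adipocyte, contractile and clock levels, no single-exon or unevenly counted genes, and each library left out. Results for some listed genes are not reported here.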

Additional observations from a re-analysis of the deposited data

Results flagged for a closer look

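Among 294 groups of 5 values, 29 held a library far from the other 4 of its group on the log2 scale, by Dixon's test. Groups with a value of 0, such as Gm2541 in the knockout, were left out of the test, so fewer than 294 were examined. Chance flags about 1 in 20 groups. Of the 29, 11 were at knockout replicate 5. Of these 11 genes, 10 are among those called without that library, so its distance in them follows from how they were chosen and cannot be read against that chance, and Ank is the other.

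Knockout replicate 5 stood apart from the other knockouts in Dbp (6.70 CPM against 48.0 to 66.8), Ciart (1.51 against 7.92 to 14.5) and Clock (174 against 104 to 112). It did so in Dll4 (12.1 CPM against 26.5 to 36.2), Tpsb2 (7.0 against 1.88 to 2.46) and Nos2 (3.68 against 9.38 to 13.7). The same held for Col1a1 (1287 CPM against 396 to 534), Pcolce (135 against 66.0 to 79.8), Tada2b (9.98 against 62.7 to 80.3), Plvap (82.0 against 24.7 to 32.7) and Ank, a pyrophosphate transporter (322 against 84.4 to 119).

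Knockout replicate 1 was high in airway epithelium genes (197 CPM in sum against 16.8 to 26.2 in the other knockouts) and in Notch genes (1255 against 911 to 997). It was low in the liver gene list (495 CPM against 867 to 998), and in the class I genes H2-D1 (682 CPM against 894 to 992) and B2m (474 against 728 to 842). Knockout replicate 2 was low in immediate early and heat shock genes (4859 CPM in sum against 6704 to 7375) and in Igfbp5 (41.6 CPM against 518 to 749). Knockout replicate 3 was high in Hsp90aa1 (1461 CPM against 1053 to 1085) and low in Rgs5 (68.6 CPM against 517 to 1057).

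In Pparafl/fl, replicate 3 was also low in Rgs5 (72.1 CPM against 589.9 to 918), and in vascular tone genes (1544 CPM in sum against 2291 to 2603) and Tgfbr3 (239 CPM against 285 to 301). Pparafl/fl replicate 1 was high in endothelial markers (2382 CPM in sum against 1814 to 1875) and Hbb-bs (353 CPM against 104 to 144), and low in Scd1 (4346 CPM against 8696 to 10290). Rxra in Pparafl/fl replicate 4 was 159 CPM against 50.8 to 60.8, Mcpt4 in replicate 4 was 15.0 CPM against 11.8 to 12.4, and Rasip1 in replicate 2 was 37.3 CPM against 45.6 to 48.9.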

How the results depend on the processing

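No paired analysis was possible because the titles give no replicate numbers shared by the genotypes, and replicates were numbered in accession order. Against 0 genes higher and 1 lower, DESeq2's Wald test gave 267 and 142, and a term for the title number 11 and 11. That term leaves knockout replicate 5 as the only library whose genotype can be told from the title number. With the contractile term and with the clock term, 0 were lower. Without single-exon or unevenly counted genes 0 were lower too, but that setting removes Gm2541, a gene of 1 exon, before the test. Leaving out 1 library gave 0 to 70 higher and 0 to 32 lower genes, with the most without knockout replicate 5. Gm2541 was not called without Pparafl/fl replicate 1 or 4. For the difference between ages, DESeq2's Wald test gave 269, and leaving out a library gave 0 to 1, with 1 without Pparafl/fl replicate 2. One fit of 20 libraries called Snx3 in place of Gm2541. Of 105 named genes 38 changed sign by more than 1 standard error with the title number term and 35 with the clock term, and 0 did so under the other alternatives. The causes were not tested. DESeq2 size factors, both other filters, the adipocyte term and the 2-fold minimum kept both counts at 0 and 1, and no alternative called Ppara. The median standard error of 0.31 on the log2 scale limits which differences 5 libraries a side could show.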

Other observations

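Only some of the 102 genes called without knockout replicate 5 belong to a gene list, and the others do not. Among the others, Cdh23, a cadherin known for its role in hair cells of the ear, measured 56.2, 34.6, 41.7, 37.4 and 13.3 CPM in the knockout, against 12.9, 13, 9.06, 11.6 and 13.1 CPM in Pparafl/fl, and rose by 1.82 on the log2 scale in replicates 1 to 4. Nnmt, which methylates nicotinamide and is abundant in fat and liver, measured 18.6, 18.9, 29.8, 34.0 and 64.2 CPM in the knockout, against 69.6, 89.2, 56.9, 97.8 and 73.8 CPM in Pparafl/fl, and fell by 1.63 on the log2 scale in replicates 1 to 4. Replicate 5 lay within or next to the Pparafl/fl range in both genes.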
